A study of Homo sapiens with 42 samples.

Results

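U3, U8 and U13 are small nucleolar RNAs (snoRNAs) of the box C/D class that act in the processing of the ribosomal RNA precursor. They were measured at 7 rows of a deposited count table of 175946 rows: 5 copies of the U3 gene (SNORD3A, SNORD3B-1, SNORD3B-2, SNORD3C and SNORD3D), SNORD118 (U8) and SNORD13 (U13). The rows were chosen by gene symbol among rows annotated as snoRNA and at most 500 bases long, a rule that uses no counts. The symbols themselves were chosen with earlier results of these data known. After rows that overlap others were dropped, 85938 rows remained, of which 432 were other box C/D snoRNAs.

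The libraries hold small RNA from human cells, sequenced with and without end repair, a treatment with Antarctic phosphatase and polynucleotide kinase (PNK) that makes RNA ends fit for adapter ligation. Libraries named A4, A7, E4 and G8 came from THP-1, a monocytic leukaemia line, in a study of POLR3G and POLR3GL knockout. These genes encode alternative subunits of RNA polymerase III, the labels do not say which was lost in which of the 4, and the count table has no row for either. Libraries labelled mock are described as HEK293T, a human embryonic kidney line, given a control antisense oligonucleotide at 200 nM for 48 hours. Each of the 5 groups has 3 libraries with PNK and 3 without, 30 in all. The other 12 labelled samples, of the THP-1 group named con and of HEK293T given an oligonucleotide against POLR3G, are not analysed here. The labels do not say whether the 3 libraries of a group came from separate cultures, or whether a named group is 1 clone, so the p-values describe the variation among these libraries alone, which may be technical. In such bulk RNA, fewer cells that express an RNA and less of it per cell cannot be told apart.

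Most box C/D snoRNAs are cut from introns and guide 2′-O-methylation of other RNAs. U3, U8 and U13 are instead known for roles in pre-rRNA cleavage and folding: U3 pairs with the 5′ part of the precursor and is needed to make 18S rRNA, U8 is needed for 5.8S and 28S rRNA, and U13 is known from human cells as a factor in the maturation of 18S rRNA, where it guides acetylation. Their human genes are transcribed by RNA polymerase II as units of their own, and the transcripts carry a modified 5′ cap, unlike the uncapped snoRNAs released from introns.

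The U3 copies are shown because their near identity sets what can be read from any one of them. All lie on chromosome 17 of GRCh38, and the U3 sequence within each, from GENCODE v29 transcripts, is 217 bases long. Capitals mark the 4 positions that differ between copies.
SNORD3A: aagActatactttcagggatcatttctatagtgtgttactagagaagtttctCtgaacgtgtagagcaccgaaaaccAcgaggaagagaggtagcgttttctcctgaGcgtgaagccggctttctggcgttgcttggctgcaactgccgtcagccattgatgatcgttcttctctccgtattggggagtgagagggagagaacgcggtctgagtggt
SNORD3B-1: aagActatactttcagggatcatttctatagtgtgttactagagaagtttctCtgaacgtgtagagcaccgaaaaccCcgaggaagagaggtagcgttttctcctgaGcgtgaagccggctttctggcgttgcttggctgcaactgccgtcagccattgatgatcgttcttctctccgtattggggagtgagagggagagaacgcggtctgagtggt
SNORD3C: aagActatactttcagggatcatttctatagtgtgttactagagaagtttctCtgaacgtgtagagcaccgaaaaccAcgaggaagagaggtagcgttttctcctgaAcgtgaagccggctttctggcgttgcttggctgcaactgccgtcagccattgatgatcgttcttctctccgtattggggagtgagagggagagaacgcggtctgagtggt
SNORD3D: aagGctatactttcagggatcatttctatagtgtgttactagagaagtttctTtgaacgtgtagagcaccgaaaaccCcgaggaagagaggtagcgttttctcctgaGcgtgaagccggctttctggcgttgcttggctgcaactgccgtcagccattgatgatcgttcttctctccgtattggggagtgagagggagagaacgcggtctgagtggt
SNORD3B-2 is identical to SNORD3B-1. Counted from 1 at the 5′ end and relative to SNORD3A, the SNORD3B copies carry A78C, SNORD3C carries G108A, and SNORD3D carries A4G, C53T and A78C. Identity between copies was 98.2% to 100%. A fragment that covers none of these positions is the same in all 5, and the longest stretch without one is 109 bases. SNORD3A lies at chr17:19188016-19188232 (plus strand), SNORD3B-1 at chr17:19061912-19062128 (plus), SNORD3B-2 at chr17:19063920-19064136 (minus), SNORD3C at chr17:19190029-19190245 (minus) and SNORD3D at chr17:19112420-19112636 (minus), where it overlaps an exon of AC007952.4.

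The non-overlapping rows summed to 5525428 to 7847972 counts per library with PNK and 9657101 to 13272998 without. Levels are given as CPM (counts scaled to a common library size) with TMM factors within each set of 15 libraries, so levels are compared within a set. Library 3 of A4, of E4 and of mock stood apart from its group in the U3 values below. G8 libraries 1 and 2 without PNK held 2.16% and 2.07% miRNA, against 13.1% to 25.9% in the other 13 libraries without PNK. The haematopoietic miRNA markers MIR142, MIR223, MIR155, MIR146A and MIR342 were above 0 in all 30 libraries and MIR150 was at 0 in 27. Without PNK their sum was 5426 to 8132 CPM of the library total in the libraries labelled mock and 629 to 13399 in the THP-1 groups. The low end was G8 libraries 1 and 2 (629 and 782), and the next THP-1 library was at 5463. With PNK the sum was 99.1 to 115 in mock, below A4, A7 and E4 (150 to 548) and within the range of G8 (36.7 to 167). These markers were thus read in the libraries labelled mock and do not bear out the labelled kidney line. Of the 6 epithelial markers MIR205 was at 0 in 29 libraries. Without PNK their sum reached 29.2 to 44.6 CPM in the libraries labelled mock and 3.21 to 88.3 in the THP-1 groups. Those libraries are therefore called by their label only.

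The 5 U3 copies were not read in equal parts. Over all libraries SNORD3A took 50.8% of U3 counts, SNORD3B-1 17.1%, SNORD3B-2 11.4%, SNORD3C 10.5% and SNORD3D 10.2%. The SNORD3A share differed between libraries of one group. In A4 it was 57.4%, 64.0% and 31.2% in libraries 1, 2 and 3 with PNK, and 62.8%, 64.2% and 31.4% without. In E4 it was 59.8%, 65.1% and 35.4% with PNK, and 49.0%, 61.7% and 34.2% without. Library 3 of both groups was thus the low one in each set. In A7 it was 48.6%, 37.8% and 34.4% with PNK and 38.6%, 32.6% and 33.5% without, and in G8 25.7%, 31.9% and 23.5% with PNK and 34.2%, 33.8% and 32.6% without. Here the 3 libraries lay closer together. In libraries labelled mock it was 32.2%, 24.8% and 49.2% with PNK and 30.6%, 28.9% and 53.2% without, with library 3 the high one. The 95% Wilson interval of A4 library 3 was 29.2% to 33.1% with PNK, and that of library 1 was 56.2% to 58.6%. These intervals cover counting error only. How reads that fit several copies were placed is not stated, and its part in these shares was not tested.

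SNORD3C took a larger share of U3 counts with PNK than without in 15 of 15 pairs of libraries with the same name and number. The range was 8.69% to 21.7% with PNK and 2.34% to 13.6% without, a pattern picked out after its values were seen and therefore not tested. SNORD3B-1 went the other way in every pair, at 10.9% to 24.9% with PNK and 15.5% to 29.4% without. SNORD3B-1 also had more counts than SNORD3B-2 in 30 of 30 libraries, with a ratio of 1.12 to 2.16 (median 1.54), although their U3 sequences are identical. Because of the shared sequence, the copies were summed to one U3 value for all tests.

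**Figure D1:**
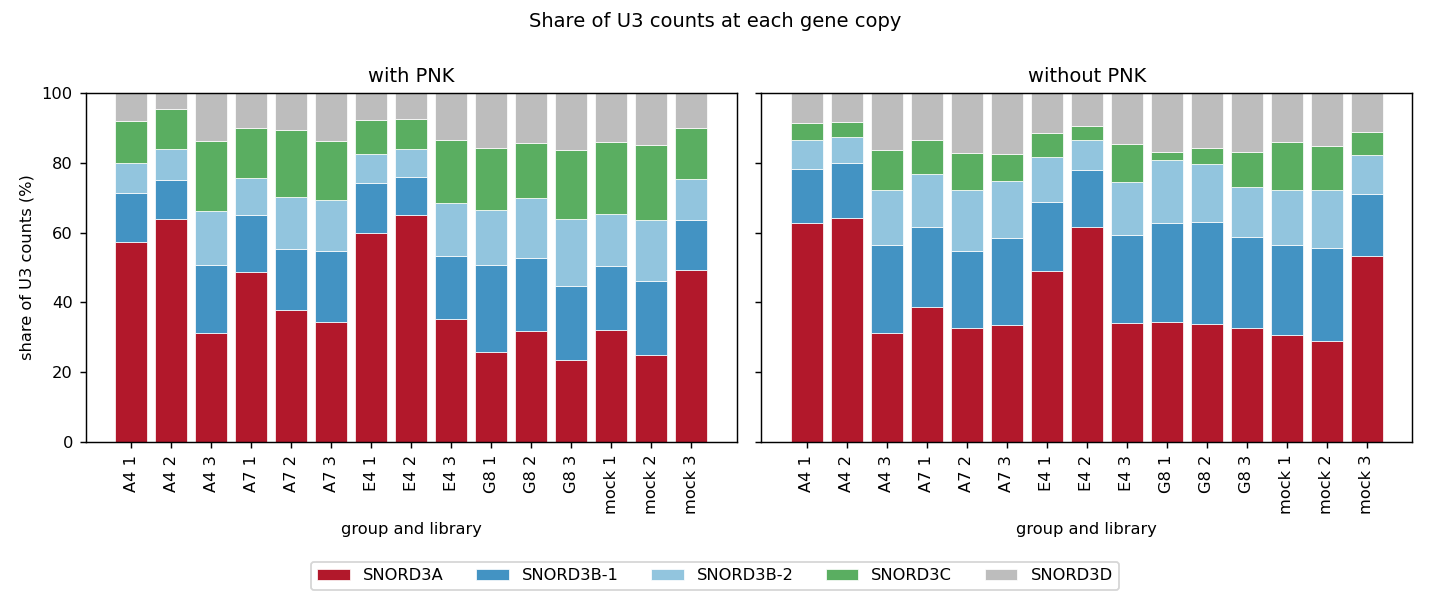
Share of U3 counts (%, vertical axis, 0 to 100) at each of the 5 gene copies (colours) in every library, with PNK on the left and without on the right. SNORD3A holds 49.0% to 65.1% in libraries 1 and 2 of A4 and E4 and in library 3 labelled mock, and 31.2% to 35.4% in library 3 of A4 and E4.

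U8 and U13 each come from a single gene among the rows. SNORD118, 134 bases at chr17:8173454-8173587 (minus), lies in an untranslated exon region of TMEM107 on the same strand. SNORD13, 104 bases at chr8:33513475-33513578 (plus), overlaps an untranslated region of TTI2 on the opposite strand. Reads of these overlapping genes and of the snoRNAs cannot be told apart in the table.

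Relative to the other box C/D snoRNAs of the same library, U8 and U3 were far more prominent with PNK than without, and U13 only slightly. The measure was the log2 ratio of an RNA's counts to the summed counts of the 432 other box C/D rows, which needs no scaling between libraries. Those 432 rows held 62.7% to 92.3% of the library total without PNK and 6.99% to 22.1% with it. A rise in the ratio thus includes this fall of the denominator. As a share of the library total, U13 was lower with PNK in every pair and U8 was higher in every pair. The U3 share was lower with PNK in G8 library 1 (0.0106%, against 0.0171% without) and G8 library 2 (0.00709% against 0.00965%), and higher in all other pairs. For U8 the ratio was 3.15 to 4.77 higher with PNK in the 15 pairs (mean 4.08 ± 0.35, SD; exact permutation test by sign flips, two-sided, p = 6.1e-05, adjusted over the 3 RNAs 9.2e-05). This p is the smallest the 15 pairs can give. Pairs were formed by name and number, and the pairing check given below was not met in A7 and mock. The mean of A4 was 4.04 and that of G8 4.17, and the libraries labelled mock had the widest spread, from 3.15 to 4.77.

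For U3 the ratio was 2.25 to 4.92 higher with PNK, again in 15 of 15 pairs (mean 3.33 ± 0.86, SD; exact permutation p = 6.1e-05, adjusted 9.2e-05). Its change varied more than that of U8. It averaged 4.16 ± 0.67 in A4, 2.37 ± 0.12 in A7, 2.84 ± 0.18 in E4, 3.19 ± 1.03 in G8 and 4.05 ± 0.30 in libraries labelled mock (SD, n = 3 pairs each). All 3 values of A4 and of mock lay above all 3 of A7 and of E4, while G8 ran from 2.46 to 4.37. This ordering of groups was not tested.

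For U13 the ratio was higher with PNK in 13 of 15 pairs, by 0.45 ± 0.53 on average (SD; exact permutation p = 0.0013, adjusted 0.0013). The lowest pair was A7 library 3, at -0.17, and the highest mock library 1, at 1.63. The U13 change averaged 0.90 ± 0.53 in A4 and 0.97 ± 0.57 in mock. It was 0.036 ± 0.20 in A7, 0.096 ± 0.19 in E4 and 0.23 ± 0.15 in G8 (SD, n = 3 pairs each). Most of the rise thus came from A4 and mock, and groups were not tested apart. The 3 RNAs thus differed among themselves. The change of U8 exceeded that of U13 by 3.63 ± 0.74 and that of U3 exceeded U13 by 2.88 ± 0.58, each in 15 of 15 pairs (exact permutation p = 6.1e-05, adjusted over 3 comparisons 9.2e-05). U8 exceeded U3 by 0.75 ± 0.90, in 10 of 15 pairs (exact permutation p = 0.0085, adjusted 0.0085).

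Against single box C/D snoRNAs, U8 and U3 lay near the top of this change and U13 in the upper middle. Among 216 other box C/D rows with at least 300 counts over the libraries, the mean change had a median of 0.16, and 9 rows exceeded U8, 14 exceeded U3 and 74 exceeded U13. Other families moved as well relative to box C/D snoRNAs. Capped small nuclear RNAs made by RNA polymerase II (U1, U2, U4, U5, U11, U12 and U4atac), which like U3, U8 and U13 have promoters of their own, were 5.48 ± 0.64 higher with PNK. Ribosomal RNA was 5.33 ± 1.17 higher, tRNA 4.97 ± 0.78, H/ACA snoRNAs 1.66 ± 0.75, scaRNAs 0.97 ± 0.54 and RMRP 1.93 ± 0.89, while miRNA was lower, at -2.01 ± 0.89 (SD, 15 pairs each). Set against the capped small nuclear RNAs in place of the box C/D snoRNAs, all 3 RNAs were lower with PNK, with a mean change of -1.41 for U8, -2.16 for U3 and -5.04 for U13 (exact permutation, adjusted p = 6.1e-05 each), so the direction turned with this denominator.

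**Figure D2:**
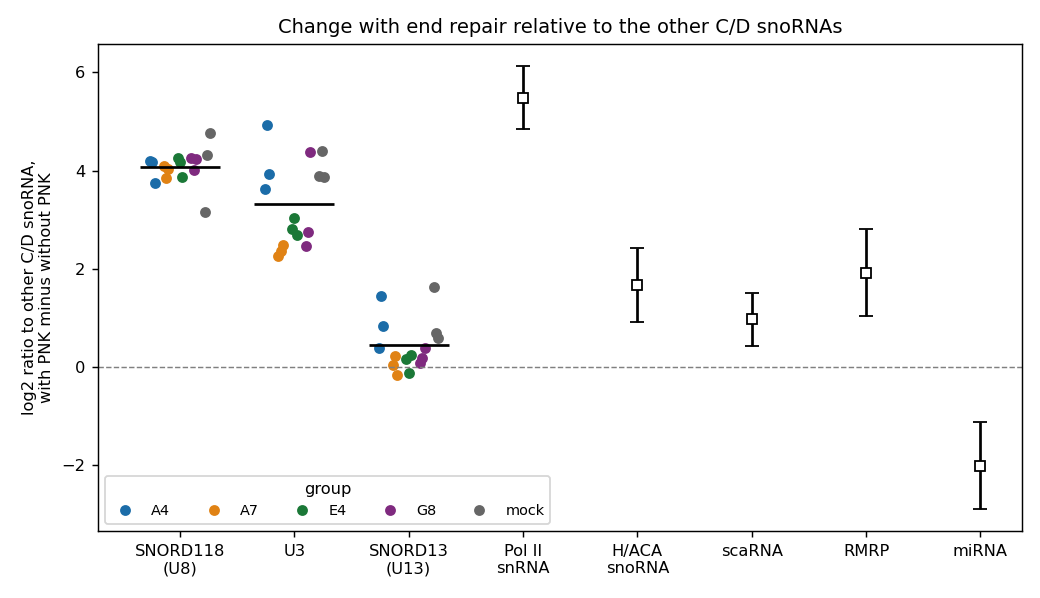
Change with end repair in the log2 ratio to the other box C/D snoRNAs (vertical axis, with PNK minus without). Coloured points are the 15 library pairs by group and black lines their means for U8 (4.08), U3 (3.33) and U13 (0.45), and white squares with bars are the mean and SD of other RNA families over the same pairs. Ribosomal RNA and tRNA are not drawn.

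Per length, the order of the 3 RNAs differed between the sets. With PNK, U3 averaged 1717 CPM per kilobase (CPM of the library total, no TMM factor), U8 1362 and U13 1191, against a median of 629 for the 216 other box C/D rows. Without PNK, U13 averaged 4580, U3 723 and U8 451, against a median of 2586. U13 was thus above the box C/D median in both sets, while U8 and the summed U3 were above it with PNK and below it without. The U3 value sums the gene copies while the median is of single rows, so the place of U3 is not like for like.

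In the test across all rows, edgeR with TMM scaling called U3, U8 and U13 lower with PNK in each of the 5 groups. The share of tested rows called lower was 16.9% in A4, 18.7% in A7, 17.7% in E4, 14.5% in G8 and 17.7% in libraries labelled mock. In these fits the median of all rows lay 2.54 to 3.38 log2 units higher with PNK. For U13 the log2 difference was -4.80 in A4 (SE 0.45), -5.07 in A7 (SE 0.35), -5.16 in E4 (SE 0.24), -6.35 in G8 (SE 0.71) and -6.08 in mock (SE 0.52), and it was between -7.79 and -1.42 in the fits run with other settings, none of which took its factors from box C/D snoRNAs. Against those snoRNAs the same counts of U13 were higher with PNK in 13 of 15 pairs, as given above. For U8 (-1.001 to -3.03) and U3 (-1.43 to -3.39) the direction turned with library totals in place of TMM factors, to 1.04 to 2.17 for U8 and 0.18 to 1.94 for U3. The direction of each RNA thus depended on the scaling, and none is claimed. The U3 call in A4 also ended without A4 library 1 (-1.18, adjusted p = 0.0858) or 2 (-1.298, 0.0713) of the set without PNK. Without a filter on low counts it ended too (-0.79, adjusted p = 0.0924), as did the U8 calls in A7 (-0.19, 0.616) and E4 (-0.21, 0.524).

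Among the THP-1 groups with PNK, U3 and U13 stood highest in A4. U3 had 930.2, 2292 and 459.5 CPM in A4 libraries 1, 2 and 3, 187, 85.4 and 128 CPM in A7, 375, 473 and 156 CPM in E4, and 134, 86.6 and 182 CPM in G8. The libraries labelled mock had 223, 128 and 219 CPM. All 3 A4 libraries exceeded every library of A7, G8 and mock, and A4 library 3, at 459.5 CPM, lay just under the highest E4 library. In order of the mean, A4 (1227 ± 952) was followed by E4 (335 ± 162), mock (190 ± 54), G8 (134.2 ± 48) and A7 (133.3 ± 51; SD, n = 3 each). From E4 downward, the ranges of neighbours in this order overlapped.

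U3 differed across the 4 THP-1 groups with PNK (edgeR quasi-likelihood F test, adjusted p = 0.00106). Of all rows tested in that fit, 22.1% were called. U3 was higher in A4 than in A7 by 3.22 on the log2 scale (SE 0.56, edgeR adjusted p = 0.00257), than in G8 by 3.198 (SE 0.56, adjusted p = 0.00178) and than in E4 by 1.895 (SE 0.53, adjusted p = 0.0367). Leaving out any one library of the 2 groups kept the first in a range of 2.38 to 3.60 and the second in a range of 2.37 to 3.59, both called, with the lowest value of each without A4 library 2. Each of the 5 copies, taken alone, was called higher in A4 than in A7 (2.44 to 3.70) and than in G8 (1.95 to 4.36) in the edgeR fit with copies apart. The copies share reads, so these calls are not separate observations. In the fit with copies summed, 8.67% of all rows were called higher in A4 than in A7 and 9.75% than in G8. Without library 3 of any group, a setting chosen after the data were seen, the U3 differences of A4 from A7, G8 and E4 were 3.57, 3.89 and 1.94 and stayed called. The call against E4 ended without A4 library 2 (1.06, adjusted p = 0.220) and without E4 library 1 (1.97, 0.0925), 2 (2.21, 0.0622) or 3 (1.53, 0.135), and with library totals (1.64, 0.0738). The call against G8 ended without G8 libraries 1 and 2 (2.75, adjusted p = 0.0728). SNORD3A alone was not called between A4 and E4 (1.89, adjusted p = 0.104).

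U13 with PNK had 266, 500 and 202 CPM in A4, 57.2, 33.7 and 46.2 CPM in A7, 99.96, 101 and 89.0 CPM in E4, and 132, 76.3 and 39.9 CPM in G8, with 186, 55.5 and 99.1 CPM in libraries labelled mock. The 3 A4 libraries lay above all others of the set, and those of A7 below all of E4. By mean the order was A4 (323 ± 157), mock (113 ± 66), E4 (96.6 ± 6.7), G8 (82.9 ± 47) and A7 (45.7 ± 12; SD, n = 3 each), where the ranges of mock, E4 and G8 overlapped, as did those of G8 and A7.

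The difference of U13 across THP-1 groups with PNK was called (edgeR F test, adjusted p = 0.000772). U13 was higher in A4 than in A7 by 2.83 (SE 0.41, edgeR adjusted p = 0.000677), than in G8 by 1.97 (SE 0.40, 0.00414) and than in E4 by 1.76 (SE 0.39, 0.0125). Leaving out any one library kept the first in a range of 2.36 to 3.07 and the second in a range of 1.51 to 2.48, both called. The call against E4 ended without A4 library 2 (1.28, adjusted p = 0.0619) and without E4 library 1 (1.77, 0.0506), 2 (1.77, 0.0522) or 3 (1.68, 0.0610).

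U8 with PNK varied over a narrower range. It had 275, 261 and 368 CPM in A4, 269, 156 and 142 CPM in A7, 195, 169 and 188 CPM in E4, and 143, 145 and 104 CPM in G8, with 135, 129 and 142 CPM in libraries labelled mock. A4 lay above E4, G8 and mock in every library and overlapped A7 through A7 library 1. By mean the order was A4 (301 ± 58), A7 (189 ± 70), E4 (184 ± 13), mock (135.5 ± 6.7) and G8 (131 ± 23; SD, n = 3 each), and A7 and E4 overlapped, as did mock and G8.

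U8 differed across THP-1 groups with PNK (edgeR F test, adjusted p = 0.0176), but not with factors taken from box C/D snoRNAs (0.225), without library 3 of every group (0.102) or without A4 library 3 (0.0694). It was higher in A4 than in G8 by 1.21 (SE 0.26, edgeR adjusted p = 0.00584), a call that ended with box C/D factors (0.46, 0.191). Against A7 and E4 the differences of 0.68 and 0.72 (SE 0.25 each) were not called, with edgeR adjusted p of 0.0902 and 0.0909. Without A7 library 1 the difference between A4 and A7 was 1.01 and called (0.0248).

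**Figure D3:**
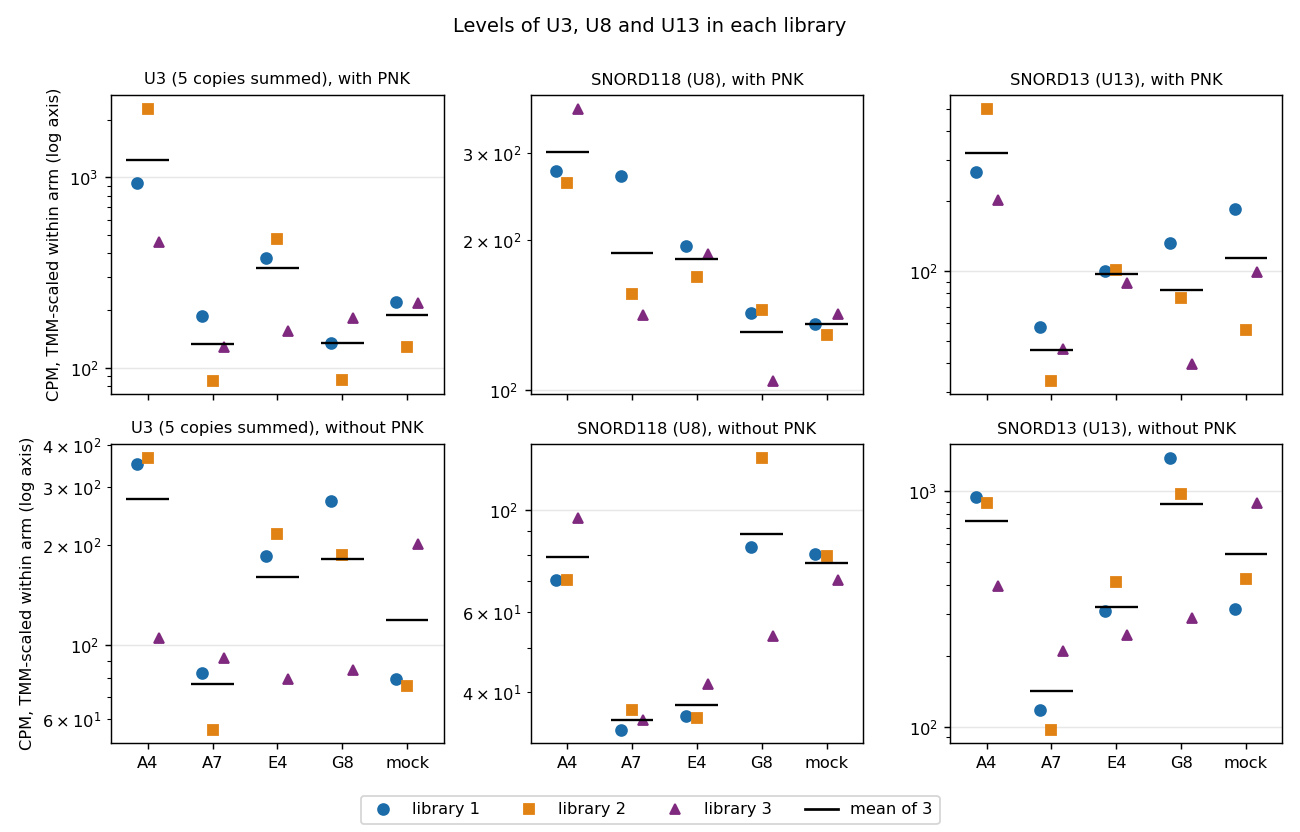
Levels of U3, U8 and U13 (CPM, log axes that differ between panels) in libraries 1 to 3 of each group, with PNK above and without below, black lines being the mean of 3. With PNK the A4 libraries lie at 459.5 to 2292 CPM for U3 and at 202 to 500 CPM for U13, and all 3 lie above every A7 and G8 library.

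U3 without PNK had 352, 367 and 105 CPM in A4, 82.8, 55.8 and 91.3 CPM in A7, 186, 216 and 79.0 CPM in E4, and 273, 188 and 84.2 CPM in G8, with 79.2, 75.2 and 202 CPM in libraries labelled mock. Library 3 was the lowest of A4, E4 and G8 and the highest of A7 and mock. By mean the order was A4 (275 ± 147), G8 (181 ± 94), E4 (160 ± 72), mock (119 ± 72) and A7 (76.6 ± 19; SD, n = 3 each), and each neighbouring pair overlapped. As shares of library totals, U3 was 0.0171%, 0.00965% and 0.00864% in G8 and 0.0208%, 0.0230% and 0.00831% in E4. The place of G8 above E4 thus depended on the TMM factors.

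Across the THP-1 groups without PNK, U3 did not pass (edgeR F test, adjusted p = 0.0871), in a fit that called 32.6% of rows. It passed with DESeq2 (0.0257), without a filter on low counts (0.0215), without A4 library 3 (0.0410) or G8 library 3 (0.0343), and without library 3 of every group (7.44e-06). The last of these settings was chosen after the data were seen. Of the pairs, U3 was higher in A4 than in A7 by 1.84 (SE 0.55, edgeR adjusted p = 0.0494; 11.7% of rows called). That call ended without A4 library 1 (1.59, adjusted p = 0.179) or 2 (1.54, 0.192) and without A7 library 1 (1.899, 0.162), 2 (1.61, 0.198) or 3 (1.93, 0.105). It also ended with box C/D factors (1.04, adjusted p = 0.122), with library totals (1.48, 0.0840) and with all deposited rows (1.92, 0.0553). Between A7 and G8 the U3 difference of -1.10 (SE 0.54, adjusted p = 0.137) was not called in edgeR, but it was with DESeq2 (-1.34, 0.0382), without G8 library 3 (-1.41, 0.0336) and without library 3 of every group (-1.76, 1.40e-05).

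U13 without PNK had 950, 888 and 396 CPM in A4, 117, 97.1 and 210 CPM in A7, 311, 412 and 244 CPM in E4, and 1389, 976 and 291 CPM in G8, with 315, 422 and 890 CPM in libraries labelled mock. Every A7 library lay below every library of the other 4 groups, which overlapped one another. By mean the order was G8 (885 ± 555), A4 (745 ± 304), mock (543 ± 306), E4 (322 ± 84) and A7 (141 ± 60; SD, n = 3 each). As shares of library totals, U13 was 0.0870%, 0.0502% and 0.0298% in G8 and 0.0923%, 0.0887% and 0.0394% in A4. The place of G8 above A4 thus depended on the TMM factors.

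U13 differed across these groups (edgeR F test, adjusted p = 0.0179), but not without A7 library 1 (0.0677) or 2 (0.0668). It was higher in A4 than in A7 by 2.41 (SE 0.54, edgeR adjusted p = 0.0237). In A7 it was lower than in G8, at -2.50 (SE 0.54, adjusted p = 0.0109; 26.7% of rows called). The first call ended without A4 library 1 (2.15, adjusted p = 0.103) or 2 (2.22, 0.106) and without A7 library 1 (2.277, 0.112) or 2 (2.15, 0.120), and the second without A7 library 1 (-2.41, 0.0539) or 2 (-2.280, 0.0536) and without G8 libraries 1 and 2 (-1.25, 0.174). Between E4 and G8 the U13 difference of -1.33 (SE 0.52, adjusted p = 0.0877) was not called in edgeR, but it was with DESeq2 (-1.53, 0.0172), without G8 library 3 (-1.71, 0.00438) and without library 3 of every group (-1.74, 1.33e-05). The last of these settings was chosen after the data were seen.

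U8 without PNK had 70.5, 70.4 and 96.2 CPM in A4, 33.1, 36.6 and 34.7 CPM in A7, 35.5, 35.1 and 41.7 CPM in E4, and 83.3, 130 and 53.0 CPM in G8, with 80.2, 79.5 and 70.5 CPM in libraries labelled mock. A7 and E4 lay below all other libraries and overlapped each other. By mean the order was G8 (88.9 ± 39), A4 (79.0 ± 15), mock (76.7 ± 5.4), E4 (37.4 ± 3.7) and A7 (34.8 ± 1.8; SD, n = 3 each), and the ranges of G8, A4 and mock overlapped. As shares of library totals, U8 was 0.00521% to 0.00671% in G8, 0.00685% to 0.00957% in A4 and 0.00712% to 0.00869% in mock. The top place of G8 thus depended on the TMM factors.

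U8 differed across these groups (edgeR F test, adjusted p = 0.0167), but not with box C/D factors (0.179) or without a filter on low counts (0.264). It was higher in A4 than in A7 by 1.18 (SE 0.31, edgeR adjusted p = 0.0325), lower in A7 than in G8, at -1.21 (SE 0.31, 0.0188), and lower in E4 than in G8, at -1.12 (SE 0.31, 0.0300; 22.4% of rows called). With box C/D factors these values were 0.44, 0.18 and -0.26 and none was called, so the direction between A7 and G8 turned with the scaling. With library totals they were 0.81, -0.38 and -0.52, with adjusted p of 0.0560, 0.230 and 0.147. The first call ended when any one library of A4 or A7 was left out (adjusted p 0.0672 to 0.132), the second without A7 library 1 (0.0626) or 2 (0.0627) or G8 library 2 (0.0563), and the third without any library of E4 (0.0686 to 0.105) or G8 library 1 (0.0639) or 2 (0.0851). Without both G8 libraries 1 and 2, which held the low miRNA shares, the second was -0.83 (adjusted p = 0.0708) and the third -0.62 (0.168). Without a filter on low counts all 3 calls ended (adjusted p = 0.393, 0.479 and 0.804).

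A4 and E4 without PNK (0.902% of rows called) and A4 and G8 without PNK (23.6%) had no called difference for any of the 3 RNAs in edgeR with all libraries. The unadjusted p was under 0.05 for U8 (1.10, adjusted p = 0.113) and U13 (1.23, 0.290) between A4 and E4, and DESeq2 called the U8 difference (adjusted p = 0.0223). A4 was above E4 in each of the 3 same-numbered pairs for all 3 RNAs, and with the replicate number as a block, which pairs these libraries, none was called. Without library 3 of every group, A4 was higher than E4 for U8 (0.91, adjusted p = 0.0191), U13 (1.26, 0.00329) and U3 (0.75, 0.0476), and lower than G8 for U8 (-0.74, 0.0137). This setting was chosen after the data were seen. With PNK, A7 and G8 (8.27% of rows called) and E4 and G8 (11.1%) had no called difference either. The unadjusted p was under 0.05 for U13 between A7 and G8 (-0.86, SE 0.39, adjusted p = 0.198) and for U3 between E4 and G8 (1.303, SE 0.52, adjusted p = 0.125), and this U13 difference was called without G8 library 3 (-1.18, 0.0340). The U3 difference was called without a filter on low counts (1.38, adjusted p = 7.79e-05), with all deposited rows (1.47, 0.0460), with SNORD3A alone (2.47, 0.0375) and without library 3 of every group (1.94, 0.0187).

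A7 and E4 had no called difference in edgeR with all libraries for any of the 3 RNAs in either set, in comparisons that called 0.0935% of rows with PNK and 0.113% without. With PNK the difference of A7 and E4 was -1.32 for U3 (SE 0.52, edgeR unadjusted p = 0.0233, adjusted 0.417) and -1.08 for U13 (SE 0.39, unadjusted p = 0.0148, adjusted 0.360), and without a filter on low counts both were called (0.000625 and 0.0120). Without PNK, leaving out library 3 of every group, a choice made after the data were seen, gave called differences for U13 (-1.75, adjusted p = 7.09e-05) and U3 (-1.53, 0.000277). Whether group differences depended on end repair was tested by the interaction of group and PNK in the 24 THP-1 libraries. No RNA of the 3 passed in edgeR (U3 unadjusted p = 0.0758, adjusted 0.506; U13 0.674; U8 0.726 adjusted), in a test that called 0.661% of rows. Without library 3 of every group the U3 interaction passed (adjusted p = 0.00139).

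**Figure D4:**
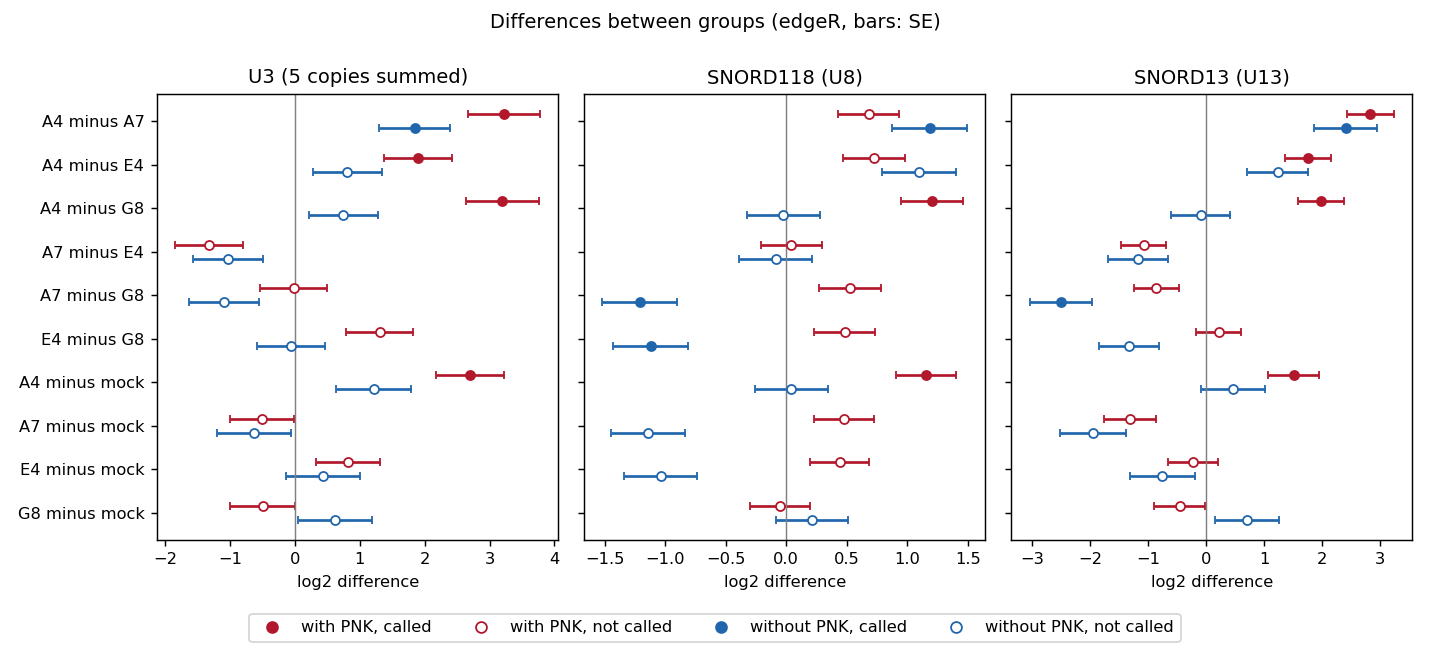
Log2 difference between groups (horizontal axis, edgeR, bars are SE) for U3, U8 and U13, the first-named group minus the second, with PNK in red and without in blue, filled where the adjusted p is under 0.05. With PNK, U3 and U13 lie right of 0 in all comparisons of A4, from 1.51 to 3.22.

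Against the libraries labelled mock, which the labels place in another cell line and which all 4 comparisons share, A4 with PNK was higher for the 3 RNAs. The difference was 2.69 for U3 (SE 0.52, edgeR adjusted p = 0.00332), 1.51 for U13 (SE 0.44, 0.0335) and 1.15 for U8 (SE 0.25, 0.00615), where 8.25% of rows were called higher. Leaving out any one library kept the U3 difference called, in a range of 1.87 to 3.08. With box C/D factors the difference stayed called for U3 (1.16, adjusted p = 0.0236), was 0.12 for U13 (0.768) and turned to -0.44 for U8 (0.213), and with library totals it was 1.02 for U13 (0.0535) and 0.61 for U8 (0.0719). The U13 call also ended without A4 library 2 (1.05, adjusted p = 0.195), mock library 2 (1.17, 0.151) or mock library 3 (1.42, 0.124), and without library 3 of every group (1.67, 0.0616). A7, E4 and G8 with PNK had no called difference from mock in edgeR, where 4.96%, 7.89% and 5.5% of rows were called. The one with an unadjusted p under 0.05 was U13 in A7 (-1.31, SE 0.44, edgeR adjusted p = 0.108), which was called with box C/D factors (-2.21), library totals (-1.50) and no filter on low counts (-1.29, 0.000450). Box C/D factors also called U3 in A7 (-1.57), U8 in E4 (-1.06), where the sign turned from 0.44, and U13 in E4 (-1.53) and G8 (-1.09).

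Without PNK none of the 3 RNAs was called against mock in any group by edgeR with all libraries, in comparisons that called 1.32% of rows for A4, 0.385% for A7, 4.29% for E4 and 27.0% for G8. Unadjusted p was under 0.05 for U8 in A7 (-1.14, SE 0.30, edgeR adjusted p = 0.136) and E4 (-1.04, SE 0.30, 0.0632) and for U13 in A7 (-1.94, SE 0.57, 0.179), and DESeq2 called these 3 (adjusted p = 0.00877, 0.0127 and 0.0243). The largest other difference was 1.21 for U3 in A4 (SE 0.57, edgeR unadjusted p = 0.0537). Without library 3 of every group, a setting chosen after the data were seen, it was 2.22 and called (adjusted p = 9.56e-06). U3 was then also called in E4 (1.39, 0.000676) and G8 (1.58, 4.17e-05). Library 3 was the lowest for U3 in A4 (105 CPM), E4 (79.0) and G8 (84.2), and the highest in mock (202). The same setting also called U13 in A4 (1.32, adjusted p = 0.000520), A7 (-1.79, 0.000943) and G8 (1.68, 1.99e-05), and U8 in A7 (-1.20, 0.00438) and E4 (-1.16, 0.00117). U8 in E4 was called with library totals (-1.01, adjusted p = 0.0403) and U13 in A7 without a filter on low counts (-1.87, 0.0307).

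Other RNAs of pre-rRNA processing were read beside the 3 as a list: 5 copies of U14 (SNORD14A to SNORD14E), needed for 18S rRNA in yeast, U22 (SNORD22), U17 (SNORA73A and SNORA73B), E2 (SNORA62), E3 (SNORA63) and RMRP, the RNA of RNase MRP. The list was chosen with earlier results of these data known, and its 5 U14 copies are not separate observations. Its counts are therefore a description and no independent support. With PNK, 9 of these 11 differed across the THP-1 groups, against 22.1% of all rows, and 3 did so without PNK, against 32.6%. With PNK, 9 of 11 were higher in A4 than in A7 (8.67% of all rows), 8 than in G8 (9.75%), 3 than in E4 (5.94%) and 10 than in mock (8.25%). Between A4 and A7, RMRP differed by 2.09 (edgeR adjusted p = 0.00470), SNORD14E by 2.49 (0.000923) and SNORA73A by 2.63 (0.00108), while SNORA62 differed by -0.08 (0.895) and SNORD22 by 0.90 (0.0684). The list median for A4 and A7 was 2.23, against -0.00066 for all rows tested. Without PNK, 4 of 11 were called higher in A4 than in G8, against 275 of 1773 rows tested. In E4 against G8, 1 of 11 was called higher, against 230 of 1773. In the other pairs of groups none of the list was called, where 0.113% to 27.0% of all rows were called in either direction.

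The rows whose levels moved most like those of the 3 RNAs were other small RNAs for the most part. Likeness was the root mean square difference of log2 CPM, centred on its mean, over the 15 libraries of a set, and is a description. With PNK the nearest to U3 were SNORA48 (0.38), SNORD14E (0.42) and SNORA73B (0.48), where U3 itself had an SD of 1.27. For U13 they were SNORA44 (0.48), SNORA46 (0.53) and RNU4ATAC (0.53), and for U8 the long non-coding RNAs lnc-MTUS2-1 (0.28) and lnc-SLC38A1-4 (0.28) and SCARNA6 (0.29). Without PNK they were SNORD22 (0.22), SNORD57 (0.24) and an 18S rRNA row, RNA18SN3 (0.25), for U3, SNORD46 (0.31), SNORD87 (0.32) and SNORD80 (0.32) for U13, and SNORD72 (0.24), SNORD7 (0.27) and SNORD62B (0.35) for U8. Among the 3 themselves, U3 and U13 were the nearest in both sets (0.71 with PNK and 0.62 without), and U3 and U8 the farthest (1.03 and 0.89).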

How the data were processed

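Small RNA libraries were sequenced from THP-1 cells and, per the labels, HEK293T cells. The authors deposited raw counts of reads per annotated row, whole numbers with no normalization, in columns for 30 of 42 labelled samples. Per the submitters' processing notes the tools were Trim Galore, FastQC, Bowtie2 2.3.5.1, SAMtools 1.9, deepTools 3.2.1 and bedtools 2.28.0, with build GRCh38. The handling of strand, overlapping rows and reads with several alignments is not stated, so reads of neighbours and near-identical copies can be shared. The con and POLR3G oligonucleotide samples are not analysed here, and no column of per-sample values was left unused.

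Rows that overlap were reduced to one set, members and small structured RNAs first, and the U3 copies summed. The main test was the quasi-likelihood test of edgeR 4.0.16 under R 4.3.3 (TMM scaling, filterByExpr, Benjamini-Hochberg over all rows tested, threshold 0.05), separately with and without PNK over the 12 THP-1 libraries (8558 and 1773 rows tested) or all 15 (9176 and 1820), and over 6 libraries of a group for end repair. The test across many rows was also run on simulated data. These had the same spread for all rows of a set and no outlying libraries, so they do not cover such features of the real libraries. Ratios were tested by exact sign-flip permutation over 15 pairs (SciPy 1.17.1). log2 CPM used a prior count of 2, and the 216 box C/D rows ranked used a pseudocount of 0.5. The row at the SNORD3B-2 locus carries the symbol SNORD3B-1 in the table and was named by its coordinates.

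Genes named are the 7 members, a list of 11 other pre-rRNA processing RNAs, summed families, and the 3 features most like each RNA. The members and lists were chosen with earlier results of these data known. Same-numbered libraries were checked for pairing: all 3 residual correlations exceeded 0.1 for A4 and E4, A4 and G8, and A7 and mock without PNK, for no pair of groups with PNK, and for 3 of 5 groups between the sets. Alternatives were DESeq2 1.42.0, its size factors, box C/D factors, library totals, no filter, every deposited row, the replicate block, other denominators and each library left out. Depth per library limits small counts, and no intervals cover error other than counting.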

Additional observations from a re-analysis of the deposited data

Results flagged for a closer look

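A row of the U8 family without a gene symbol, named RF00096 in the table, at chr11:123301390-123301523 (plus strand) on GRCh38, held 7753 counts over the 30 libraries and entered no comparison above. It was picked out because it showed a signal outside the chosen rows. Its counts were 8.59% to 60.8% of those of SNORD118 in the 15 libraries with PNK (median 34.9%, 59 to 981 counts), and 5.82% to 18.3% in the 15 without (median 15.3%, 41 to 155 counts). Together, 597 rows annotated as variants or pseudogenes of U3, U8 and U13 held 10046 counts, 5.63% of the counts of the 7 rows described.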

How the results depend on the processing

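Against the capped small nuclear RNAs of RNA polymerase II as denominator the ratios with PNK over without turned to -2.16 for U3, -1.41 for U8 and -5.04 for U13. They kept their direction and calls with the other denominators, without each group and without each library. Between the sets, library totals turned U8 to 1.71 in A4, 2.13 in A7, 2.17 in E4, 1.05 in G8 and 1.04 in mock, and U3 to 1.94, 0.51, 0.94, 0.18 and 0.91 in the same order. Factors from box C/D snoRNAs turned U8 to -0.44 between A4 and mock and to -1.06 between E4 and mock with PNK, and to 0.18 between A7 and G8 without PNK. The causes were not tested.

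For tests across THP-1 groups the adjusted p for U8 with PNK was 0.225 with box C/D factors and 0.102 without library 3 of every group, a setting chosen after seeing the data. For U8 without PNK it was 0.179 with box C/D factors and 0.264 without a filter. For U3 without PNK it was 0.0257 with DESeq2, 0.0215 without a filter and 7.44e-06 without library 3, and the U3 interaction then had 0.00139. Leaving out one library at a time gave 0.00695 to 0.0694 for U8 with PNK, 0.000437 to 0.0677 for U13 without PNK and 0.0343 to 0.272 for U3 without PNK.

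With the replicate number as a block, calls ended between A4 and A7 without PNK for U8 (1.15, adjusted p = 0.0609), U13 (2.18, 0.0509) and U3 (1.53, 0.0763), between E4 and G8 without PNK for U8 (-1.09, 0.0515), and between A4 and E4 with PNK for U3 (1.84, 0.0519). In these pairs of groups the numbers were not found to pair the libraries. With 3 libraries a group, the SE of a difference between groups was 0.25 to 0.57 log2 units, which limits what these data can show.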
